A study of Mus musculus with 12 samples.

Results

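What the tumours of drug-treated mice had in common, whichever drug was given, was examined by setting all 9 drug libraries of the study as 1 side against its 3 vehicle libraries, so that all 12 libraries of the series were used. The drug side was the mean of the 3 drug group means, with 3 libraries in each of the MBQ-167, paclitaxel and combination groups. The tumours were grown in BALB/c mice from 300000 injected cells of 4T1, a mammary carcinoma line of the mouse that spreads to other organs and here carried firefly luciferase, placed in mammary fat pad 4. The genotype of the samples was labelled WT. Treatment started on day 14 and ran for 2 weeks, with tumours taken on day 28. Mice received vehicle, MBQ-167 at 100 mg/kg 5 times a week, paclitaxel at 5 mg/kg 1 time a week, or both drugs on those schedules. The libraries are labelled biological replicates but not tied to single mice, so p-values measure only the spread between these libraries. The cells were injected on 2 occasions, which libraries belong to which is not given, and a difference between occasions cannot be told apart from one between groups.

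MBQ-167 is named in the series title as an inhibitor of Rac and Cdc42, small GTPases that organise the actin cytoskeleton and cell migration. Paclitaxel binds microtubules, stabilises them and holds dividing cells in mitosis. The 2 drugs therefore act on different proteins, and the question here was which transcripts differed from vehicle with both of them. Immediate early genes such as Fos are switched on within minutes by growth factors and stress through MAP kinase signalling, interferon-induced genes are switched on through interferon receptors and IRF factors, and 4T1 tumours are known for drawing in neutrophils through G-CSF.

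The RNA was labelled polyA RNA, and the deposited values were raw counts per gene. Total counts ran from 11540557 to 17001562 per library and did not separate drug from vehicle (p = 0.527, exact permutation test, two-sided, over 220 splits). Between 17.1% and 37.5% of the counts fell on 3 abundant features that lie together on chromosome 17, at 34.6% ± 2.95 (SD, n = 3) in vehicle and 28.8% ± 6.86 (SD, n = 9) in drug libraries (exact p = 0.182). CT010467.1, the feature among them annotated as ribosomal RNA, held 1.11% to 2.00% of the counts in vehicle and 0.165% to 0.866% in drug libraries. The TMM scaling factors were 0.826 to 0.904 in vehicle and 0.933 to 1.22 in drug libraries. Neither measure overlapped between drug and vehicle. Vehicle replicate 3 stood apart in its neutrophil markers, and the values of the neutrophil genes are given with and without it. No 2 libraries of a group agreed within sampling noise. The keratins of a mammary carcinoma were present, with Krt8 at 371 to 694 CPM (counts scaled to library size with TMM factors) in vehicle and 277 to 370.1 in drug libraries. The casein gene Csn1s1, a marker of secretory mammary cells, had no count in any library, and the lung markers Sftpa1 and Scgb1a1 had counts in 1 and 4 of the 12 libraries. Of 7 secretory mammary markers 6 had counts, with a summed level of 0.186 to 9.33 CPM, highest in combination replicate 3. All 6 lung markers listed had counts, with a summed level of 1.67 to 4.93 CPM.

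The drug tumours shared a response with 2 sides. Immediate early genes, glucocorticoid-induced genes, glycolysis genes and markers of neutrophils and red cells were lower than in vehicle, and interferon-induced genes were higher. Of 18252 genes tested by edgeR's quasi-likelihood method, 522 were higher and 631 lower in the drug tumours at an adjusted p under 0.05, which is 2.86% and 3.46% of the genes (6.32% in all). The 9 drug libraries all lay above the 3 vehicle libraries for 625 genes (3.42%) and all below for 721 genes (3.95%), or 7.37% in all. Both criteria were met by 356 higher genes (1.95%) and 422 lower genes (2.31%), referred to here as the shared genes. Their fold changes were moderate, with a median size of 0.81 on the log2 scale for the shared higher and 0.54 for the shared lower genes.

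These counts rested in part on single libraries and on 1 drug group. Without vehicle replicate 1 the test passed 107 higher and 184 lower genes, and without the paclitaxel group 44 and 90. After a correction for GC content per library the split was 206 higher to 419 lower, and with the neutrophil marker level of each library as a covariate, described with the blood cell markers, it was 74 to 63. That level itself differs between drug and vehicle, so this fit removes part of any difference the 2 share. Calls that held in all 12 fits leaving out 1 library and in all 3 fits leaving out 1 drug group numbered 41 higher and 75 lower.

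**Figure D1:**
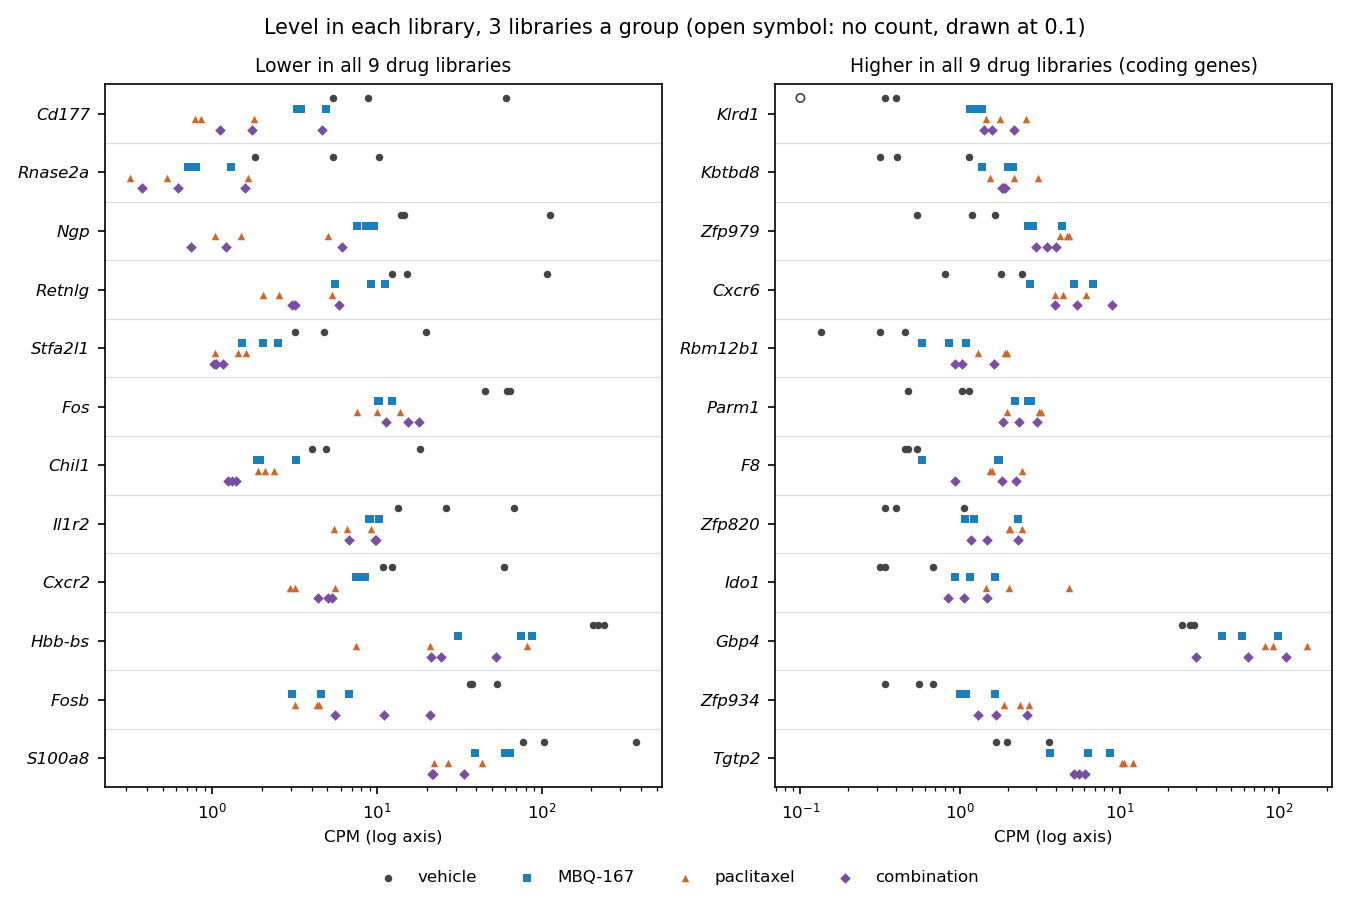
Level of single genes in CPM (log axis) in each of the 12 libraries, 1 point a library, with the 4 groups in rows of their own within each gene. The left panel holds the 12 lower genes and the right panel the 12 protein-coding higher genes with the largest difference in their weakest drug group; the genes were chosen for having no overlap between drug and vehicle libraries, so that separation is no finding, and the 1 vehicle library without a Klrd1 count is drawn as an open circle at 0.1.

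Immediate early genes were lower in the drug tumours. Of 25 tested, 17 fell and none rose, against 3.46% of all genes tested that were lower. The median log2 fold change was -0.66, against a median of -0.00 over all genes. The summed level of the list was 1910.2 to 2035 CPM in the vehicle libraries and 1121 to 1309 CPM in the drug libraries, so the groups did not overlap. The median was -0.62 with MBQ-167, -0.61 with paclitaxel and -0.75 with the combination, 3 comparisons that share the vehicle libraries.

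Fos (ENSMUSG00000021250, chromosome 12, 85473890 to 85477273, GRCm38), one partner in the AP-1 transcription factor dimer, was at 45.3, 61.8 and 64.1 CPM in the vehicle libraries and at 7.51, 11.3 and 17.8 CPM (lowest, median and highest) in the drug libraries. Every drug library was far below every vehicle library. The log2 fold change was -2.26 ± 0.16 (SE, adjusted p = 2.08e-05), with -2.38 with MBQ-167, -2.44 with paclitaxel and -1.95 with the combination. Fosb, another AP-1 subunit, was at 53.7, 36.8 and 37.5 CPM in vehicle and at 3.04, 4.58 and 20.8 CPM in the drug libraries, a change of -2.79 ± 0.27 (adjusted p = 0.000319). The ranges did not overlap, although the mean of the combination group lay nearer to vehicle than those of the others (log2 fold changes of -3.16 with MBQ-167, -3.43 with paclitaxel and -1.77 with the combination; unadjusted p for a difference among the drug groups 0.00126, not significant after adjustment).

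Atf3, a stress-induced transcription factor, fell from 54.9, 67.3 and 54.4 CPM to 12.7, 15.5 and 24.2 CPM (-1.77 ± 0.16, adjusted p = 0.000165). Klf2, a factor best known from vessel lining and lymphocytes, fell by a similar amount in each group (-1.36 with MBQ-167, -1.37 with paclitaxel and -1.08 with the combination). Ppp1r15a, the phosphatase subunit GADD34 that restores translation after stress, was at 14.96, 19.9 and 16.4 CPM in vehicle and at 5.27, 6.76 and 8.90 CPM in drug libraries. Neither gene had a drug library inside the vehicle range. Other members that fell, named after their values were seen, were Jun (-0.87 ± 0.13), Zfp36, which destabilises cytokine mRNAs (-0.88 ± 0.14), Nr4a1 (-1.03 ± 0.19) and Egr1 (-0.73 ± 0.16). Egr1 missed the threshold without vehicle replicate 3 (-0.54). The count of 17 was 14 without vehicle replicate 1, 13 without the paclitaxel group, 14 with the GC correction and 5 with the neutrophil covariate, under which the median was -0.66.

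The phosphatases that switch MAP kinases off were more mixed, with 3 of 15 feedback genes lower (3.46% of all genes tested) and none higher. Dusp1 (ENSMUSG00000024190, chromosome 17, 26505590 to 26562128), itself an immediate early gene, was at 60.9, 83.6 and 90.1 CPM in vehicle and at 21.96, 27.5 and 31.6 CPM in the drug libraries. Every drug library was below every vehicle library, and the 3 drug groups were nearly level (-1.46 with MBQ-167, -1.56 with paclitaxel and -1.54 with the combination). The pooled change was -1.52 ± 0.12 (adjusted p = 2.86e-05). Its annotated span overlaps Ergic1 on the opposite strand, and strandedness of the counts is not given in the sources used here. Jun, Ppp1r15a, Slc2a1, Hk1 and Aldoa are among the other genes named that an annotated gene overlaps on the opposite strand. Dusp8 (-0.92 ± 0.19) and Dusp10 (-0.84 ± 0.16) also fell, but Dusp8 missed the threshold without vehicle replicate 3 (-0.72) and Dusp10 without vehicle replicate 1 (-0.63).

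Many immediate early genes carry a cAMP response element (CRE), the site of CREB and ATF factors. The full palindrome TGACGTCA, read on both strands in the 250 bases before the RefSeq start (GRCm38.p6), was present in 2.58% of the 11414 promoters matched to a tested gene, in 16 of 295 promoters (5.42%) of shared lower genes and in 2 of 20 (10.0%) of the immediate early list. The 4 promoters below belong to lower genes of the immediate early and phosphatase lists and are shown because they hold it. Capitals mark the CRE, and Dusp8 holds 2 copies. A match is a description of the letters, not a bound site.
Dusp1: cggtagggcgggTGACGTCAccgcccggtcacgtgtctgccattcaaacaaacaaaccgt
Btg2: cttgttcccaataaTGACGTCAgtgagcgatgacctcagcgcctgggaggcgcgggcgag
Dusp8: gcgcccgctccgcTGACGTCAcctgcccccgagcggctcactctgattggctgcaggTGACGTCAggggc
Ppp1r15a: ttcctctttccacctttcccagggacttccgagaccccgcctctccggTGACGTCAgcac
The stretches are at chr17:26508568-26508627 (minus strand), chr1:134079276-134079335 (minus strand), chr7:142095335-142095404 (minus strand) and chr7:45526269-45526328 (minus strand). All are upstream of the RefSeq start. Btg2, an antiproliferative early gene, was at 20.2, 25.5 and 23.97 CPM in vehicle and at 10.5, 14.3 and 16.7 CPM in the drug libraries (-0.77 ± 0.13, adjusted p = 0.00674), without overlap.

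Glucocorticoid-induced genes were lower as well. Of 15 tested, 10 fell and none rose, against 3.46% of all genes tested that were lower. The median was -0.86 (-0.92 with MBQ-167, -0.98 with paclitaxel and -0.56 with the combination). Their summed level was 1199.9 to 1456 CPM in vehicle and 749.9 to 887 CPM in drug libraries. Fkbp5, a chaperone of the glucocorticoid receptor and a standard readout of its activity, was at 204, 198 and 264 CPM in vehicle and at 86.4, 119 and 142 CPM in drug libraries. The ranges were well apart, and the change was -0.94 ± 0.12 (adjusted p = 0.00181). The metallothioneins Mt1 (-0.90 ± 0.17) and Mt2 (-0.95 ± 0.19), which bind metal ions, Tsc22d3 (-0.82 ± 0.20), known as GILZ, and Sgk1 (-0.42 ± 0.11) fell too. Ddit4, an inhibitor of mTOR signalling that hypoxia also induces, fell from 159, 182 and 255 CPM to 84.3, 117 and 128 CPM. The count of 10 was 5 without vehicle replicate 1, 4 without the paclitaxel group, 6 with the GC correction and 1 with the neutrophil covariate. Leaving out 1 library ended the call of Sgk1 in 9 of 12 fits, of Tsc22d3 in 3, with -0.58 without vehicle replicate 3, and of Mt1 (-0.73) and Mt2 (-0.85) without vehicle replicate 1.

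Per1, shared between that list and the circadian clock list, was at 61.1, 49.02 and 84.7 CPM in vehicle and at 22.95, 28.7 and 38.9 CPM in drug libraries, a change of -1.15 ± 0.16 (adjusted p = 0.00322). Of 18 clock genes, 4 fell and none rose (median -0.23), the others being Nfil3 (-0.82), Bhlhe40 (-0.51) and Cry1 (-0.62). The hour of tumour collection is not given in the sources used here. Of 15 heat shock chaperones, 5 fell (median -0.35). Hspa1b, an inducible HSP70 gene with the near-identical copy Hspa1a, was at 66.4, 92.9 and 78.5 CPM in vehicle and at 15.3, 24.2 and 50.01 CPM in drug libraries, and reads of the pair may be split between them. Hspb1 (-1.72 ± 0.32), a small heat shock protein, and Dnajb1 (-0.60 ± 0.12), a partner of HSP70, fell as well. In the unfolded protein and integrated stress response list, 3 of 18 fell, namely Ppp1r15a, Ddit3 (-0.80) and Herpud1 (-0.61). The counts of the clock, heat shock and stress response lists stand against 3.46% of all genes tested that were lower. Without vehicle replicate 1 the heat shock count was 3, the clock count 2, and the calls of Herpud1 (-0.46), Bhlhe40 (-0.51) and Cry1 (-0.51) were lost, that of Cry1 also without vehicle replicate 3 (-0.52). Without the paclitaxel group the heat shock count was 2, and with the neutrophil covariate both counts were 0.

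**Figure D2:**
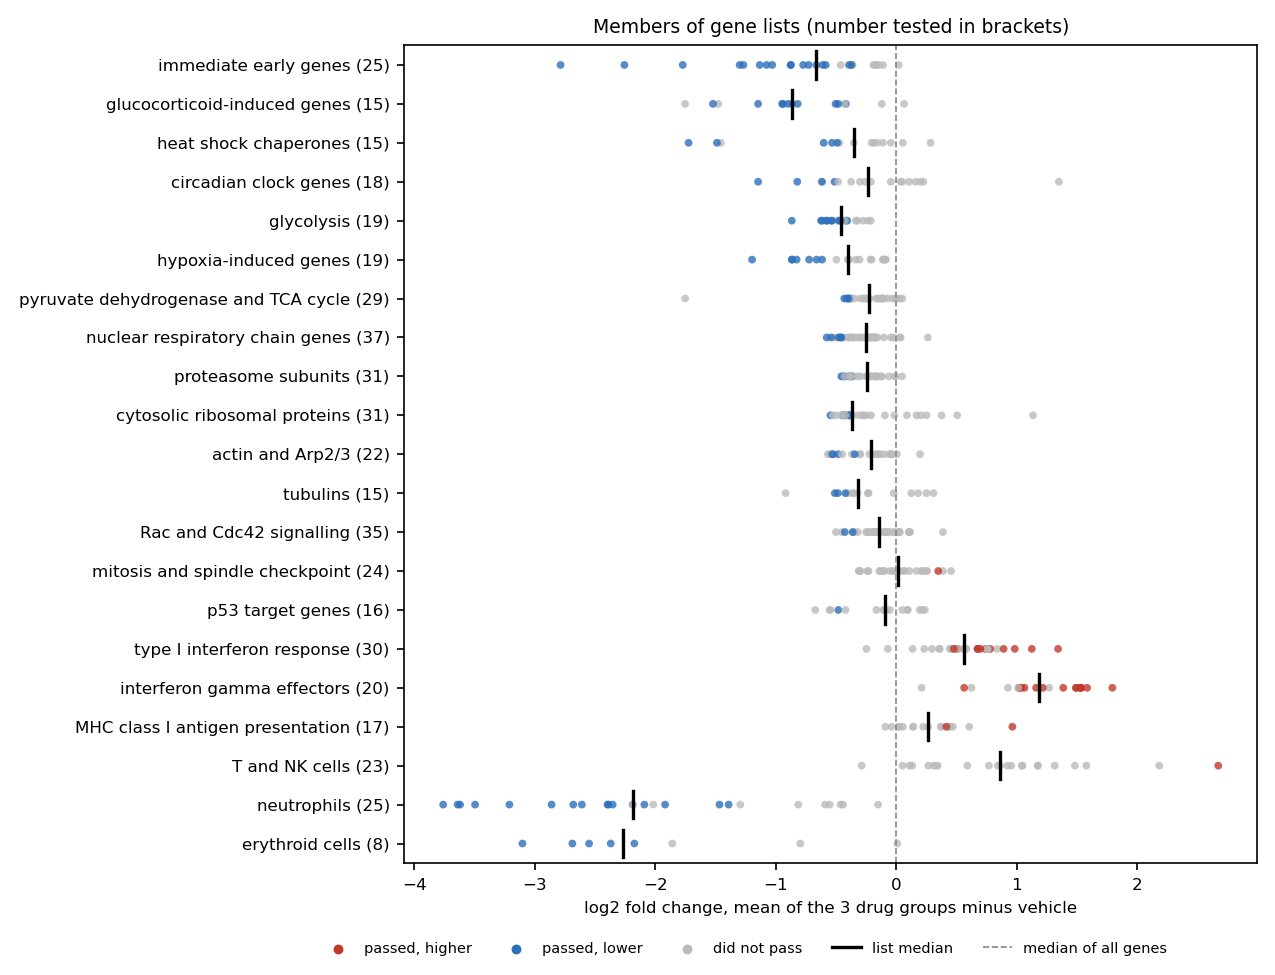
Log2 fold change of the mean of the 3 drug groups minus vehicle (x axis) for the tested members of 21 gene lists (y axis), 1 point a gene, coloured by the outcome of the test; black bars are list medians and the dashed line is the median of all genes. Immediate early genes, glycolysis genes and neutrophil markers lie to the left of 0, with medians of -0.66, -0.46 and -2.19, and interferon gamma effectors to the right, with a median of 1.19.

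The series title names central carbon metabolism, and glycolysis was the list there with the most lower genes. All 19 glycolysis genes had a negative fold change, and 12 passed the test as lower, against 3.46% of all genes tested. The median was -0.46 (-0.40 with MBQ-167, -0.45 with paclitaxel and -0.51 with the combination). The summed level was 5013 to 5354 CPM in vehicle and 3216 to 4212 CPM in drug libraries, without overlap. Slc2a1 (ENSMUSG00000028645, chromosome 4, 119108711 to 119137983), the glucose transporter GLUT1, was at 289.8, 304 and 316 CPM in vehicle and at 138, 173 and 213 CPM in drug libraries. The vehicle values were close together and above all others, and the change was -0.87 ± 0.11 (adjusted p = 0.00233).

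Among the enzymes, Hk1, a hexokinase of the entry step, was at 148, 149.9 and 151 CPM in vehicle and at 84.5, 97.8 and 126 CPM in drug libraries (-0.57 ± 0.10). Pfkl, the liver-type phosphofructokinase (-0.62 ± 0.10), and Aldoa, an aldolase (-0.62 ± 0.10), fell too. Ldha, which makes lactate from pyruvate, was at 531, 525 and 557 CPM and at 313, 395 and 432 CPM (-0.48 ± 0.11, adjusted p = 0.0206), again with no drug library inside the vehicle range. The pyruvate kinase gene Pkm (-0.46 ± 0.10) and the lactate exporter Slc16a3 (-0.58 ± 0.12) were lower. Ldha missed the threshold without vehicle replicate 1 (-0.49) or 3 (-0.45), Pkm without vehicle replicate 1 (-0.41) and Slc16a3 without vehicle replicate 2 (-0.47). Hk2 (-0.34 ± 0.11, adjusted p = 0.0797) and Gapdh (-0.23 ± 0.12, adjusted p = 0.278) did not pass. A second glucose transporter outside the list, Slc2a3, named after its values were seen, was at 12.9, 18.3 and 32.1 CPM in vehicle and at 4.83, 6.64 and 10.2 CPM in drug libraries (-1.61 ± 0.21).

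The glycolysis count was 6 without vehicle replicate 1, 2 without the paclitaxel group, 6 without the combination group, 5 with the GC correction and 0 with the neutrophil covariate, where the median was -0.59. Hypoxia-induced genes, which overlap with glycolysis in Slc2a1, had 8 lower of 19 (median -0.40), against 3.46% of all genes tested. Among the 8 were the peptide hormone Adm (-1.20 ± 0.20), the collagen prolyl hydroxylase P4ha1 (-0.72 ± 0.14), Ndrg1 (-0.83 ± 0.17) and the carbonic anhydrase Car9 (-0.66 ± 0.13). The hypoxia count was 5 without vehicle replicate 3, where Ndrg1 missed the threshold (-0.52), 4 without the paclitaxel group and 0 with the neutrophil covariate. Car9 missed it without vehicle replicate 1 (-0.66).

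The mitochondrial part moved less. Each count of lower genes in this paragraph stands against 3.46% of all genes tested. In the pyruvate dehydrogenase and TCA cycle list 5 of 29 genes fell (median -0.23), with Cs, the citrate synthase that opens the cycle, at 176, 162 and 146 CPM in vehicle and at 98.2, 124 and 142 CPM in drug libraries (-0.39 ± 0.09, adjusted p = 0.0217). Mdh2 (-0.40) and Idh2 (-0.43) fell by similar amounts. The list had 1 lower gene without vehicle replicate 1 and 0 without the paclitaxel or the combination group. Of 37 nuclear respiratory chain genes 5 fell (median -0.25), among them Cox4i1 (-0.58) and Atp5b (-0.48), and without vehicle replicate 1 none did. By edgeR none of the 13 mitochondrially encoded genes listed passed (median 0.09), and none did by DESeq2 or limma voom. Of 2 mitochondrial ribosomal RNA genes tested, 1, outside the list, was lower by edgeR. In the pentose phosphate list 2 of 9 fell, G6pdx (-0.45) and Taldo1 (-0.58), and in the serine and one-carbon list 2 of 12, Shmt2 (-0.48) and Mthfd1l (-0.36). Cytosolic ribosomal proteins had 6 lower of 31 (median -0.37) and proteasome subunits 5 of 31 (median -0.24). Without vehicle replicate 1, and likewise without the paclitaxel group, the pentose phosphate, serine, ribosomal and proteasome counts were all 0. Idh2 missed the threshold in 6 of the 12 fits that left out a library, among them that without vehicle replicate 3 (-0.36), and G6pdx and Mthfd1l each in 8.

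Transcripts of the drug targets Rac1 and Cdc42 did not pass the test. Rac1 was at 315, 264 and 317 CPM in vehicle and at 219, 259 and 273 CPM in drug libraries (-0.25 ± 0.09, adjusted p = 0.124), and the ranges overlapped. Cdc42 (-0.22 ± 0.10, adjusted p = 0.206) and Pak1, a kinase that active Rac and Cdc42 bind (-0.11 ± 0.12, adjusted p = 0.611), also missed the threshold. A transcript level does not check an inhibitor that acts on the protein. Of 35 Rac and Cdc42 signalling genes 2 fell, the actin-severing cofilin Cfl1 (-0.43) and the scaffold Iqgap1 (-0.36), against 3.46% of all genes lower. In the actin and Arp2/3 list 4 of 22 fell, Actb (-0.53), Arpc1b (-0.48), Capzb (-0.53) and Pfn1 (-0.34). Without vehicle replicate 1 there was 1 call in each of these lists, and without the paclitaxel group 0. Iqgap1 missed the threshold in 10 of the 12 fits that left out a library.

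Among tubulins, whose polymers paclitaxel binds, 3 of 15 fell. Tubb5 was at 1262, 939 and 1246 CPM in vehicle and at 763, 843 and 975 CPM in drug libraries, with an overlap, and its change was -0.42 ± 0.10 (adjusted p = 0.0272). Tuba1c (-0.48) and Tubb2a (-0.51) were the others. The count was 0 without vehicle replicate 1, without the paclitaxel group, with the GC correction and with the neutrophil covariate, and Tubb5 also missed the threshold without vehicle replicate 3 (-0.36). The proliferation marker Mki67 was at 202, 181 and 237 CPM in vehicle and at 178, 214 and 252 CPM in drug libraries (0.07 ± 0.12, adjusted p = 0.774). In the mitosis list 1 of 24 genes rose, Top2a (0.35 ± 0.10, adjusted p = 0.0463), a call lost in 11 of the 12 fits that left out a library. No DNA replication gene of 22 passed by edgeR, DESeq2 or limma voom, and in the p53 list 1 of 16 fell, Cdkn1a (-0.48 ± 0.11), a call lost without vehicle replicate 1 (-0.49) or 2 (-0.42). Over all genes tested, 2.86% were higher and 3.46% lower, so the mitosis and p53 counts are near those shares.

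Interferon-induced genes were higher in the drug tumours. Of 20 interferon gamma effectors, GTPases and chemokines that defend cells against intracellular pathogens and draw in T cells, 15 rose and none fell, with a median of 1.19 (1.07 with MBQ-167, 1.49 with paclitaxel and 0.95 with the combination). The summed level was 389 to 539 CPM in vehicle and 524 to 1374 CPM in drug libraries, so the lowest drug library reached into the vehicle range, and 8 of the 20 genes had no overlap. Over all genes tested, 2.86% passed as higher and 3.42% had every drug library above every vehicle library. Of 30 type I interferon response genes 11 rose, again against 2.86% of all genes (median 0.56, with 0.37, 0.90 and 0.47 in the same order of groups). Their summed level did not overlap, at 469 to 571 CPM in vehicle and 654 to 1109 CPM in drug libraries.

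Zbp1 (ENSMUSG00000027514, chromosome 2, 173206612 to 173218923), a sensor of Z-form nucleic acids that can trigger cell death, was at 13.8, 12.3 and 12.7 CPM in vehicle and at 22.6, 26.8 and 40.8 CPM in the drug libraries. The vehicle values were tight and below every drug value, and the change was 1.12 ± 0.14 (adjusted p = 0.00181), with 0.92 with MBQ-167, 1.45 with paclitaxel and 1.00 with the combination.

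Of the immunity-related GTPases, Irgm1 was at 51.1, 47.6 and 35.2 CPM in vehicle and at 65.5, 85.2 and 150.3 CPM in drug libraries (1.06 ± 0.18). Irgm2 rose by 1.22 ± 0.22 and Tgtp2 by 1.58 ± 0.28, although Tgtp2 has a near-identical copy, Tgtp1, with which reads may be shared. Gbp7, a guanylate-binding protein, was at 40.7, 37.4 and 26.5 CPM in vehicle and at 42.2, 72.1 and 109 CPM in drug libraries (1.04 ± 0.17), with the lowest drug value just above the highest vehicle value. Gbp4 rose by 1.53 ± 0.34, while Gbp2 had 0.62 ± 0.26 and did not pass (adjusted p = 0.158). The annotated span of Irgm2 overlaps Igtp on the same strand, and that of Gbp4 overlaps Gbp8 and Gbp9, so their counts are uncertain. Ido1, which breaks down tryptophan, rose by 1.79 ± 0.49 from low levels of 0.316 to 0.680 CPM, but missed the threshold in 9 of the 12 fits that left out a library. The chemokines Cxcl9 (1.49 ± 0.38) and Cxcl10 (1.39 ± 0.32) rose with overlapping ranges. Without vehicle replicate 3 both missed the threshold, at 1.14 and 1.05, and without vehicle replicate 1 at 1.61 and 1.52. The call of Gbp4 was lost without any 1 of the 3 vehicle libraries (1.47 to 1.58).

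Other type I members included Parp14 (0.70 ± 0.10), Ifi44 (0.89 ± 0.17) and Mx1 (0.98 ± 0.26). In the MHC class I list 2 of 17 rose, against 2.86% of all genes tested, the transactivator Nlrc5 (0.96 ± 0.18) and the peptide-trimming enzyme Erap1 (0.41 ± 0.12). No MHC class II gene of 10 passed by edgeR, DESeq2 or limma voom (median 0.53). Leaving out 1 library ended the call of Mx1 in 11 of 12 fits and of Erap1 in 10, and that of Nlrc5 without vehicle replicate 1 (0.93). The count of 15 interferon gamma effectors was 4 without vehicle replicate 1, 2 without the paclitaxel group and 0 with the neutrophil covariate, under which the median was 0.85. The count of 11 type I genes was 5, 2 and 1 in these fits. Without vehicle replicate 3 the counts were 6 and 7.

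Promoters of this group were searched for a site of interferon signalling. A pair of GAAA copies with any 2 bases between them is the core of the site read by IRF factors. It was sought on either strand in the 250 bases before the start. It was present in 11 of 14 interferon gamma effectors with a matched promoter (78.6%) and 9 of 20 type I genes (45.0%). Of the shared higher genes 16 of 235 (6.81%) held it, and of all 11414 promoters 2.73%. Both lists were chosen as interferon-induced genes and counted whether or not a member rose, so their shares say nothing about the drugs. A match is a description of the letters, not a bound site. The 4 promoters below are from genes that rose. Capitals mark the motif, which in Gbp7 is on the other strand and in Irgm1 is present as 2 overlapping copies.
Gbp7: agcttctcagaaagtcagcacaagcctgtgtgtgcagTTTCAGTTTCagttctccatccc
Irgm1: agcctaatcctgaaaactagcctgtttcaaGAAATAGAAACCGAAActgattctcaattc
Irgm2: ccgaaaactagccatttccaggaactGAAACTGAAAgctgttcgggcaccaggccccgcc
Tgtp2: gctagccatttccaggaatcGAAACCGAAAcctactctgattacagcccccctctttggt
They lie at chr3:142530246-142530305 (plus strand), chr11:48871421-48871480 (minus strand), chr11:58214887-58214946 (plus strand) and chr11:49064243-49064302 (minus strand) in GRCm38.p6.

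Markers of blood-borne cells changed with treatment. In bulk tumour RNA, fewer cells of a type and less RNA of these genes per cell cannot be told apart. Of 25 neutrophil markers tested, 16 fell and none rose, against 3.46% of all genes tested that were lower. The median was -2.19 (-1.71 with MBQ-167, -2.42 with paclitaxel and -2.56 with the combination). A further marker, Elane, had counts in 9 of the 12 libraries and was too low to test. The summed level of the list was 899 to 2244 CPM in vehicle and 506 to 782 CPM in drug libraries. The mean log2 level of the markers, relative to vehicle, was -0.71, -0.52 and 1.23 in the vehicle libraries and -2.13 to -0.93 in the drug libraries, a difference of -1.62 (p = 0.00455 in the exact permutation test, the smallest it can give, and 0.0182 adjusted over 4 measures). The list was chosen with earlier results of these data known, so this p-value is not independent support for a difference.

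S100a8 (ENSMUSG00000056054, chromosome 3, 90668978 to 90670035), a calprotectin subunit, was at 103, 76.4 and 374 CPM in vehicle and at 21.4, 33.6 and 64.5 CPM in drug libraries. Vehicle replicate 3 was far above the other 2, and these were above all drug libraries. The change was -2.40 ± 0.34 (adjusted p = 0.00322) and -1.36 without that library. Ngp, a granule protein, was at 13.98, 14.5 and 112 CPM in vehicle and at 0.743, 5.01 and 9.53 CPM in drug libraries (-3.62 ± 0.58, or -1.89 without vehicle replicate 3). Cxcr2, the receptor that guides neutrophils to CXC chemokines, was at 12.4, 10.9 and 58.8 CPM and at 2.95, 5.32 and 8.46 CPM (-2.35 ± 0.37, or -1.12 without it).

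Cd177, a surface protein of neutrophils, had -3.50 ± 0.53, or -1.68 without vehicle replicate 3, and Retnlg -3.21 ± 0.48, or -1.50. Outside the list, Il1r2, the decoy receptor for interleukin 1 (-2.09 ± 0.31, or -1.24), and Chil1, a chitinase-like protein (-2.26 ± 0.35, or -1.25), fell in the same way, as did Stfa2l1 of the stefin family, a list member (-2.68 ± 0.39, or -1.46). Over the whole list, 10 markers were called without vehicle replicate 3, at a median of -1.19, and 10 without the paclitaxel group. The part of these cells in the other results was not tested beyond the fits with their level as covariate. Rnase2a, an eosinophil-type ribonuclease outside the list, was at 5.37, 10.2 and 1.82 CPM in vehicle and at 0.316, 0.716 and 1.66 CPM in drug libraries (-2.69 ± 0.48, or -2.01 without vehicle replicate 2). Its highest vehicle value was in replicate 2 and its lowest in replicate 3, whereas the neutrophil markers were highest in replicate 3.

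Red cell markers behaved differently across the vehicle libraries. Hbb-bs, a beta globin, was at 237, 220.04 and 203 CPM in vehicle, with no library apart, and at 7.43, 30.9 and 86.7 CPM in drug libraries (-2.37 ± 0.44, adjusted p = 0.00947). Hba-a1, an alpha globin with the near-identical copy Hba-a2, had -2.17 ± 0.37 (adjusted p = 0.00674). Of 8 erythroid genes tested 5 fell (median -2.27), against 3.46% of all genes tested. The summed level was 259.8 to 267 CPM in vehicle and 15.4 to 109.6 CPM in drug libraries. The progenitor factor Gata1, with counts in 9 of the 12 libraries, was too low to test. The count of 5 was 3 without vehicle replicate 2, without the paclitaxel group or without the combination group, and 0 with the neutrophil covariate (median -1.29). The part of blood retained in the tumours in this result was not tested.

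Most lymphocyte markers did not pass. Of 23 T and NK cell genes 22 had a positive fold change (median 0.86), but by edgeR only Klrd1, a subunit of the NK cell receptor for nonclassical MHC molecules, rose. Over all genes tested, 9046 of 18252 had a positive fold change and 2.86% passed as higher. Klrd1 (ENSMUSG00000030165, chromosome 6, 129591782 to 129598775) was at 0, 0.395 and 0.338 CPM in vehicle and at 1.16, 1.45 and 2.61 CPM in drug libraries (2.67 ± 0.55, adjusted p = 0.0142), low levels in both groups that did not overlap. DESeq2 called 4 members higher, and the median was 0.50 without vehicle replicate 3 and -0.32 with the neutrophil covariate. Cd8a (1.05 ± 0.38, adjusted p = 0.109) and Trbc2 (2.18 ± 0.83, adjusted p = 0.13) did not pass. Cxcr6, a chemokine receptor of T and NK cells outside the list, was at 1.81, 2.45 and 0.810 CPM in vehicle and at 2.74, 5.20 and 9.02 CPM in drug libraries (1.64 ± 0.39, adjusted p = 0.0244) and missed the threshold without vehicle replicate 1 (1.69) or 3 (1.29). No B and plasma cell gene of 10 passed by edgeR, DESeq2 or limma voom, and the median of 1.07 turned to -0.24 without paclitaxel replicate 2.

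Of the other cell types, 1 macrophage marker of 20 fell (Cd14, -0.71, lost without vehicle replicate 1 or 2), 1 fibroblast marker of 18 (Col6a1, -0.88) and no endothelial marker of 17. These counts are near the 3.46% of all genes tested that were lower. In the epithelial list Krt8 (-0.77) and Krt18 (-0.75) fell, Krt18 missed the threshold without vehicle replicate 1 (-0.69) or 3 (-0.50), and the list median of -0.39 was 0.10 without vehicle replicate 3.

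**Figure D3:**
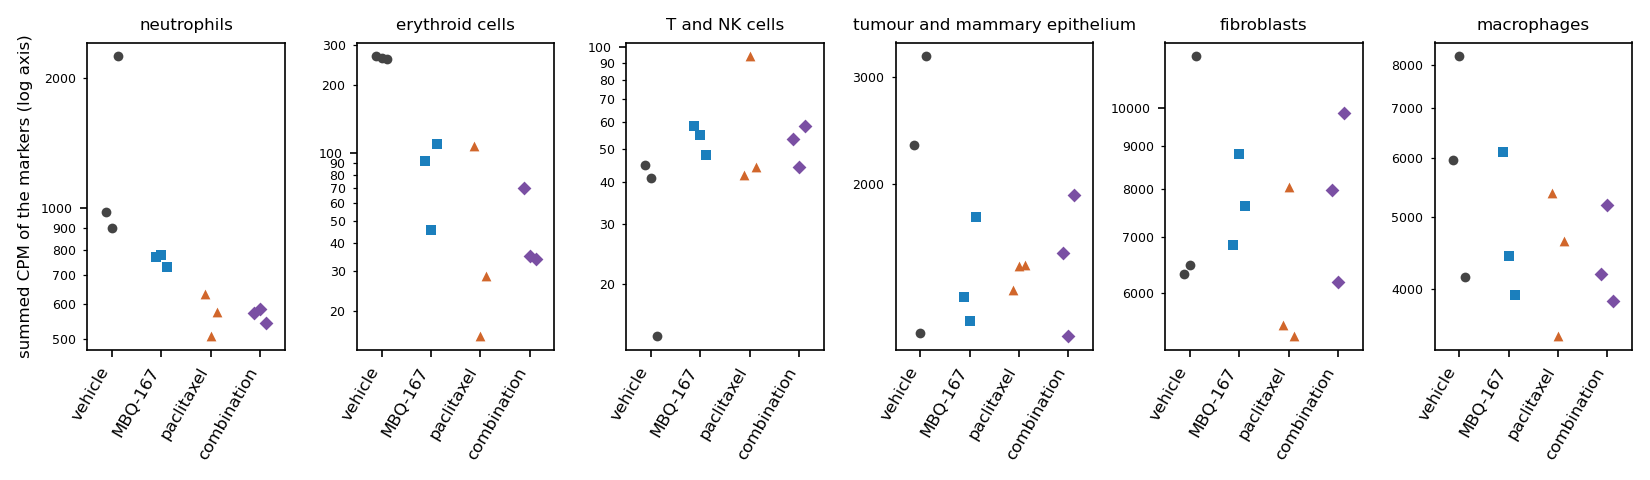
Summed CPM (log axis) of the markers of 6 cell types in each of the 12 libraries, 1 point a library, by group. Neutrophil markers reach 2244 in 1 vehicle library and 899 or more in all vehicle libraries against at most 782 in drug libraries, erythroid markers lie between 259.8 and 267 in vehicle and at most at 109.6 in drug libraries, and the other panels overlap.

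The genes with the largest shared rise were low in level, and most were not protein-coding. By the size of the difference in their weakest drug group the first was 3110067C02Rik, a processed pseudogene at 0, 0.158 and 0.405 CPM in vehicle and 0.743, 1.47 and 2.17 CPM in drug libraries (2.87 ± 0.60, adjusted p = 0.0151). Olfr756-ps1, Gm5970 and BC023105 are also pseudogenes, Gm43633, Gm37053 and Gm37618 are unclassified transcripts inside the coding genes Parp11, Bcl2 and Prim2 on the same strand, and Gm29112 lies inside Ikzf2. Each of these pseudogenes and transcripts missed the threshold without vehicle replicate 1. Their changes ran from 1.57 for Gm37618 to 2.72 for Gm43633. Protein-coding genes with a large shared rise included Kbtbd8, an adaptor of a ubiquitin ligase (1.67 ± 0.41), the zinc finger gene Zfp979 (1.74 ± 0.32), and, named after their values were seen, Parm1 (1.56 ± 0.34) and the coagulation factor gene F8 (1.71 ± 0.45). Zfp979 was at 1.66, 1.19 and 0.540 CPM in vehicle and at 2.65, 4.00 and 4.82 CPM in drug libraries, and F8 missed the threshold in 9 of the 12 fits that left out a library, Kbtbd8 in 4 and Parm1 in 1.

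Protein-coding genes made up 70.2% of the shared higher and 84.6% of the shared lower genes, against 75.2% of all genes tested. Of 679 transcripts of the annotation class TEC, predictions that await experimental proof, 58 were higher (8.54%) and 2 lower, and of 440 lincRNAs 24 were higher and 6 lower. Processed pseudogenes went the other way, with 47 of 1253 lower and 9 higher. Of the 101 noncoding shared higher genes 39 (38.6%) lay inside a coding gene on its own strand, against 21.5% of the 4419 noncoding genes tested, where reads of the host's introns cannot be told apart from theirs.

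The 2 sides also differed in base composition. Median transcript GC content was 41.2% in the shared higher and 53.3% in the shared lower genes, against 49.4% over all genes. Of the 3629 genes with the lowest GC content 351 were higher and 29 lower, and of the 3629 with the highest 10 were higher and 209 lower. Across genes, a library's deviation from the mean correlated with GC content at 0.116 to 0.293 in vehicle and at -0.287 to 0.139 in drug libraries. The drug groups were unlike in this. The correlation was 0.00609 to 0.139 with MBQ-167, -0.287 to -0.114 with paclitaxel and -0.192 to -0.0273 with the combination. MBQ-167 replicate 1 lay inside the vehicle range. The mean of the drug libraries differed from that of vehicle in this correlation by -0.30 (p = 0.0136 in the exact permutation test, or 0.0273 adjusted over 4 measures). Its part in the changes was not tested beyond the fit with the GC correction. In that fit 14 immediate early genes were lower against 17 as reported, 10 interferon gamma effectors higher against 15, and 5 glycolysis genes lower against 12.

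**Figure D4:**
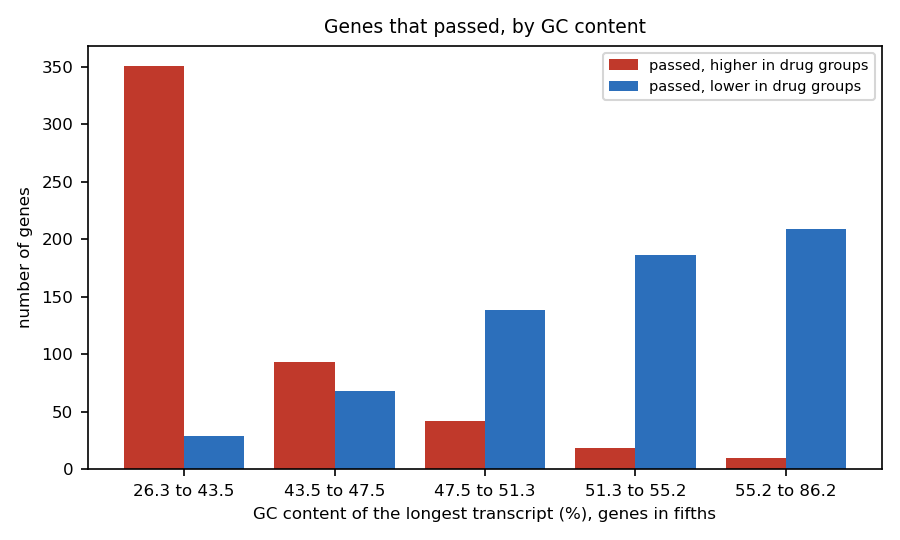
Number of genes called higher and lower in the drug tumours (bars, counts) in 5 nearly equal groups of the tested genes by transcript GC content (x axis, percent), from the lowest to the highest. Calls move from 351 higher and 29 lower in the first group to 10 higher and 209 lower in the last.

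Whether the drug groups differed within this shared response was tested by asking of each gene if the means of the 3 drug groups were equal. The vehicle libraries had no part in that contrast, but they did enter the filter, the scaling and the estimate of spread. No gene passed by edgeR (0 of 18252; smallest adjusted p = 0.768), 913 genes (5%) had an unadjusted p under 0.05, DESeq2 called 15 and limma voom 0. Among the 356 shared higher genes 87 (24.4%) had an unadjusted p under 0.05, and among the 422 shared lower genes 28 (6.64%). The median fold change of the shared higher genes was 0.65 with MBQ-167, 0.97 with paclitaxel and 0.80 with the combination, and MBQ-167 was the weakest group for 264 of them, against 8191 of the 18252 genes tested. For the shared lower genes the medians were -0.48, -0.60 and -0.55. Against vehicle, with which the 3 comparisons share their controls, 3 genes were higher (0.0164%) and 14 lower (0.0767%) with MBQ-167, 578 (3.17%) and 455 (2.49%) with paclitaxel, and 188 (1.03%) and 148 (0.811%) with the combination.

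The genes with the smallest unadjusted p among the drug groups were Zfp518a, a zinc finger gene, the interferon-induced genes Mndal and Samd9l, and the kinase gene Ulk4. Mndal had log2 fold changes of 0.03 with MBQ-167, 0.82 with paclitaxel and 0.66 with the combination, and Samd9l of 0.11 with MBQ-167, 0.97 with paclitaxel and 0.62 with the combination. In both the MBQ-167 group lay near vehicle and the other 2 groups above it. The annotated span of Mndal overlaps Ifi203 and Ifi211 on the same strand. Zfp518a had 0.37 with MBQ-167, 1.03 with paclitaxel and 0.57 with the combination and Ulk4 0.08 with MBQ-167, 0.62 with paclitaxel and 0.55 with the combination. None of the 4 passed after adjustment by edgeR.

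**Figure D5:**
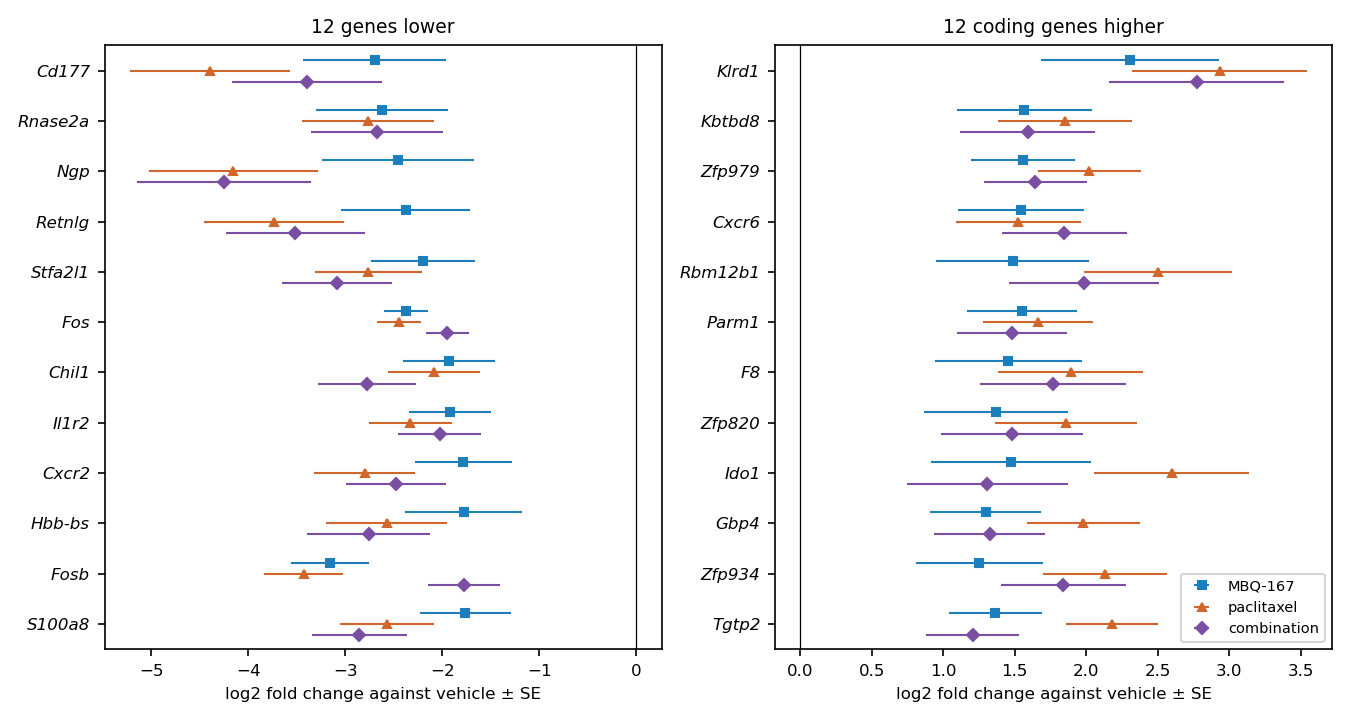
Log2 fold change against vehicle with its SE (x axis) in each of the 3 drug groups, for the 12 lower genes (left) and the 12 protein-coding higher genes (right) with the largest difference in their weakest group, chosen on these values and sharing the vehicle libraries. Every group lies on the same side of 0 for each gene, and most error bars of the 3 groups overlap, with Fosb nearer to 0 in the combination group (-1.77) than with MBQ-167 (-3.16) or paclitaxel (-3.43).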

How the data were processed

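Bulk polyA RNA libraries of tumours, 12 in all and 3 in each of 4 groups, were compared. The deposited table holds raw counts for each gene, made by the authors with HISAT2 and HTSeq on GRCm38, per the submitters' processing notes, which also name DESeq2. Versions, annotation, strandedness and the handling of reads with several positions are named neither there nor in the labels (not given in the sources used here), so counts of overlapping genes and near-identical copies are uncertain. Totals ran from 11540557 to 17001562 counts, and libraries of 1 group differed by more than sampling noise.

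Of 46078 genes in the table, 15275 had no count and 18252 passed edgeR's filter for low counts (minimum count 10). Counts were scaled by TMM and fitted with edgeR 4.0.16 (quasi-likelihood, R 4.3.3) to 4 group means with 8 residual degrees of freedom. Drug was the mean of the 3 drug group means, without weighting by library, and vehicle was subtracted from it. A further test asked if the 3 drug groups differed. P-values were adjusted by Benjamini-Hochberg over all genes tested, with a threshold of 0.05. Overlap between groups was read from CPM. Measures of whole libraries were compared by exact permutation tests. The scripts were tested on simulated data.

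The alternatives were DESeq2 1.42.0, limma 3.58.1 with voom, RLE scaling, 2 other filters, drug as 1 group, the replicate number as a block, each drug group and each library left out, the abundant chromosome 17 features left out, a GC correction and the neutrophil marker level as covariate. A protein-coding table and the last 2 together were added after seeing the data.

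Gene positions and classes came from GENCODE vM21 (GRCm38) and promoters from RefSeq (GRCm38.p6), with 11414 tested genes matched. Promoters on chromosome 18 were left out, so list members there are not in the promoter counts. The RefSeq start of some genes, Dusp1 and Irgm2 among them, is not the start of the GENCODE gene. The genes named were, by rule, the 12 in each direction with the largest difference in their weakest drug group among genes that passed, had 1 CPM or more and did not overlap, the 4 of each list with the smallest p, 13 fixed genes and the 4 with the smallest p among drug groups. Others were named after their values were seen, and a few genes that the rule names are not reported here. The members and lists were chosen with earlier results of these data known.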

Additional observations from a re-analysis of the deposited data

How the results depend on the processing

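As reported, 522 genes were higher and 631 lower, of which 356 and 422 also did not overlap. With RLE scaling, a stricter filter, drug as 1 group, the replicate block, limma voom, the chromosome 17 features left out, the MBQ-167 group left out or protein-coding genes alone, all of these counts were within 1.5 times of those. DESeq2 called 853 higher genes and 15 genes that differed among the drug groups, and testing with no filter called 1079 lower and 17 that differed among the groups, against 0 as reported. Without the paclitaxel group 44 were higher and 90 lower (43 and 87 without overlap), and without the combination group 262 and 335. The GC correction gave 206 higher and 419 lower (171 higher without overlap), so that 33% of calls were higher in place of 45.3%, the neutrophil covariate 74 and 63 (27 and 15), and both together 9 and 30 (2 and 9); the cause was not tested. Leaving out 1 library gave 107 to 496 higher and 184 to 631 lower genes, and 105 to 453 and 165 to 521 without overlap, the lowest values all without vehicle replicate 1, and 0 genes that differed among the drug groups. Of the 356 and 422 shared genes, 349 and 422 had the same sign with the GC correction and 356 and 417 with the neutrophil covariate.

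Same replicate numbers did not pair the samples: their deviations from the group means correlated at 0.032 on average (-0.175 to 0.252 over 18 pairs), and 5 of 12 libraries correlated best with their own number. With the replicate number as a block 520 genes were higher and 646 lower (333 and 403 without overlap).

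For single genes, 30 values changed sign under an alternative and 4 when a library was left out; the cause was not tested. With the GC correction these were mt-Nd5 (-0.0528) and Ccne2 (-0.0487). With the neutrophil covariate they were Apob (5.13), Hpx (3.81), Mmp8 (0.71), Cd177 (0.12), Retnlg (0.16), Ltf (0.0104), Cxcr2 (0.00296), Des (0.83), Hopx (0.67), Hk2 (0.0319) and Ciita (-0.0506). With both they were Apob (5.00), Hpx (3.97), Mmp8 (0.57), Cd177 (0.30), Retnlg (0.15), Ltf (0.13), Des (1.01), Ndrg1 (0.0360), Krt18 (0.0378), Hopx (0.66), Actn1 (0.0774), Fdft1 (0.0864), Srebf2 (0.0936), Hk2 (0.17), Ccne2 (-0.18), Zfp518a (-0.11) and Ifit2 (-0.14). Mmp8, Cd177, Retnlg, Ltf and Cxcr2 are members of the list whose mean level is the neutrophil covariate. Their values in the fits with that covariate are therefore no separate result. Leaving out 1 library gave Mki67 -0.0192 (without vehicle replicate 2) to 0.179, Apob -5.86 to 2.43, Hpx -5.52 to 0.97 and Hopx -0.93 to 0.0937, the last 3 highest without vehicle replicate 3. Another 554 values under an alternative and 334 with a library left out had the reported direction but missed the threshold. Genes of few counts, such as Klrd1 and Ido1, had SEs of 0.55 and 0.49, so that small changes in them were not detectable at this depth.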

Other observations

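Tia1, Fubp1, Luc7l3 and Ttc14, named after their values were seen, were among the 14 higher calls that held in every fit that left out a library, in every fit that left out a drug group, with the GC correction and with the neutrophil covariate, although Tia1, Fubp1 and Ttc14 missed the threshold with the last 2 together (0.74, 0.59 and 0.80). Tia1, a stress granule protein that also steers splicing, was at 33.1, 46.4 and 48.96 CPM in vehicle and at 56.7, 74.3 and 88.3 CPM in the drug libraries (0.80 ± 0.12, adjusted p = 0.00402). Fubp1, which binds single-stranded DNA and RNA, was at 86.1, 92.3 and 110.3 CPM in vehicle and at 133, 178 and 209 CPM in drug libraries (0.88 ± 0.11, adjusted p = 0.0021). Luc7l3, a splicing factor of the U1 particle, rose by 0.87 ± 0.14 and overlapped between the groups, and Ttc14, a tetratricopeptide repeat protein, by 0.94 ± 0.13. Of these genes Tia1, Fubp1 and Ttc14 had no drug library inside the vehicle range. The kinase gene Atm (0.84 ± 0.12), the ribonucleoprotein gene Hnrnpu (0.81 ± 0.13), the splicing regulator Srsf10 (0.62 ± 0.09) and the S-adenosylmethionine synthetase gene Mat2a (0.58 ± 0.10) also rose, with calls that were lost with the neutrophil covariate. Mir17hg, the host transcript of the miR-17 to miR-92 cluster, rose from 5.52, 5.93 and 7.97 CPM to 10.03, 13.6 and 16.6 CPM (1.04 ± 0.17).

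On the lower side, Col18a1, a basement membrane collagen, was at 475, 437 and 576 CPM in vehicle and at 215, 278 and 329 CPM in drug libraries (-0.83 ± 0.10, adjusted p = 0.00181), and Mxra8, a surface receptor of mesenchymal cells, at 29.9, 36.5 and 21.5 CPM and at 12.6, 15.4 and 19.7 CPM (-0.92 ± 0.15, adjusted p = 0.0053). Neither overlapped.

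The 2 called genes with the most negative fold changes, Apob and Hpx, rested on 1 library. Apob was at 0.0756, 0.0791 and 53.2 CPM in the vehicle libraries and 0 to 0.948 CPM in the drug libraries, with a change of -5.27 ± 1.07 (adjusted p = 0.0135) that was 2.43 without vehicle replicate 3. Hpx was at 0.605, 0.316 and 83.7 CPM in vehicle and 0.429 to 1.36 CPM in drug libraries (-4.94 ± 0.92, or 0.97 without it). Both encode plasma proteins made by the liver.

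CT010467.1, annotated as ribosomal RNA and 1 of the 3 abundant features on chromosome 17, was at 24218, 12398 and 12868 CPM in vehicle and at 1355, 3449 and 8179 CPM in drug libraries (-1.95 ± 0.40, adjusted p = 0.0138). Lars2, a mitochondrial leucyl-tRNA synthetase, was at 3691, 2049 and 2354 CPM and at 259.6, 656 and 1726 CPM (-1.82 ± 0.41, adjusted p = 0.0194). In vehicle, Lars2 and CT010467.1 were both highest in replicate 1 and lowest in replicate 2, and a link between their counts was not tested. Neither overlapped, and both missed the threshold without vehicle replicate 1, at -1.57 for CT010467.1 and -1.53 for Lars2.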
